A study of Nematostella vectensis with 47 samples.

Results

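RNA-seq was compared between gastrulae of the F1 generation of morpholino-injected parents (F1 MO, 2 libraries) and gastrulae of the solvent control (F0 DMSO, 3 libraries) of the sea anemone Nematostella vectensis. The members were taken by their labels alone, as 5 of the 10 RNA-seq libraries and 5 of the 47 samples of the series, with all 19231 genes of the count table. F1 MO embryos had received no treatment. Their F0 parents had been injected with morpholinos against DNMT1 and UHRF1, and each replicate was 1 line. F0 DMSO embryos had been kept for 25 h in 0.1% DMSO, and their 3 replicates came from gametes pooled over several males and females, with a separate broodstock for each. Both groups carried the genotype that the labels give as Massachussets, and both were whole embryos at 25 hours post fertilization (hpf), from which polyadenylated RNA was sequenced. The groups thus differed in generation, in the presence of DMSO, in the treatment of the parents and in the crosses behind a library, and these cannot be told apart in this comparison. The number of parents of each F1 MO line is not stated outright in the sources used here. For reference, values of F1 GSK (2 untreated lines from parents exposed to GSK, an inhibitor of DNMT1) and of F0 GSK (3 libraries, embryos kept in 5 µM GSK) are given beside them.

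DNMT1 is the enzyme that copies cytosine methylation onto the new DNA strand after replication, and UHRF1 is the co-factor that recruits it to half-methylated CpG sites. A morpholino is an antisense oligonucleotide that blocks the translation of an mRNA, so that the protein is depleted while the transcript need not be. In sea anemones, as in many invertebrates, DNA methylation lies mainly in the bodies of transcribed genes, whereas promoters are largely free of it. In vertebrates, by contrast, most of the genome is methylated, and methylation of promoters goes along with silencing. The comparison asked which genes differed in expression in the offspring of parents that had been depleted of the maintenance machinery. The methylation of F1 MO embryos themselves was not analysed here. Methylation levels given below are baseline levels of gastrulae of an untreated cross, read by Nanopore sequencing as the percent of valid calls at CpGs that were 5mC (mCG).

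Total counts per library were 20823699 to 25338288. Across genes, which are not independent replicates, Pearson's r of log2(CPM + 1), where CPM is the count of a gene divided by the total of its library and put on the usual fixed scale, was 0.987 between the F1 MO lines and 0.994 between F0 DMSO replicates 1 and 2. F0 DMSO replicate 3 stood apart from its own group, with r of 0.966 and 0.975. It also had the lowest r with the F1 MO lines, 0.939 and 0.941, compared with 0.962 to 0.975 for F0 DMSO replicates 1 and 2. The control group was thus not homogeneous, and calls without it are given below. The genes encoding DNMT1 and UHRF1 were not identified among the gene IDs, and a translation block would in any case not be read from their counts.

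Of the 19231 genes, 16750 passed edgeR's filter on low counts and were tested, and 2481 did not. At a false discovery rate (FDR) below 0.01 in edgeR's quasi-likelihood test, 95 genes were called, 0.567% of those tested. Of these, 79 were lower in F1 MO, 0.472% of the tested genes, and 16 were higher, 0.0955%. For all 95 genes, the highest library of one group lay below the lowest library of the other, and the groups were separated in this way at 50.3% of all tested genes. At an unadjusted p below 0.05, 4668 genes passed. DESeq2 called many more genes at the same threshold, 570 higher (3.48% of the 16398 genes with an FDR) and 909 lower (5.54%), 9.02% in all, and these included all 95. At FDR below 0.05, edgeR called 971 genes (5.80%), 343 higher (2.05%) and 628 lower (3.75%). Without F0 DMSO replicate 3, edgeR called 266 higher and 556 lower, again with all 95 among them. Without F0 DMSO replicate 1 there were 1 higher and 5 lower, without F0 DMSO replicate 2 there were 0 higher and 1 lower, and without F1 MO replicate 1 or 2 edgeR called 0 genes, with 2863 and 2630 at an unadjusted p below 0.05. The direction of each of the 95 genes was the same in every one of these fits. As their groups did not overlap and the libraries were the same, this was close to fixed in advance.

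All called genes differed by at least 2-fold. Among the 79 lowered genes, the median log2 fold change was -2.11, and the fall was at least 4-fold for 44. Their median expression was 45.7 CPM in F0 DMSO and 11.6 CPM in F1 MO, compared with a median of 19.9 CPM in F0 DMSO over all tested genes. Among the 16 raised genes, the median log2 fold change was 1.90, with a range of 1.25 to 5.83 and 7 genes at 4-fold or more, and the median expression was 22.3 CPM in F0 DMSO and 94.0 CPM in F1 MO. Called genes were long, with a median span of 10471 bp for the lowered and 14205.5 bp for the raised genes, compared with 6848 bp over all tested genes. The plot of fold change against expression shows that the called genes were spread over the range of expression.

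**Figure D1:**
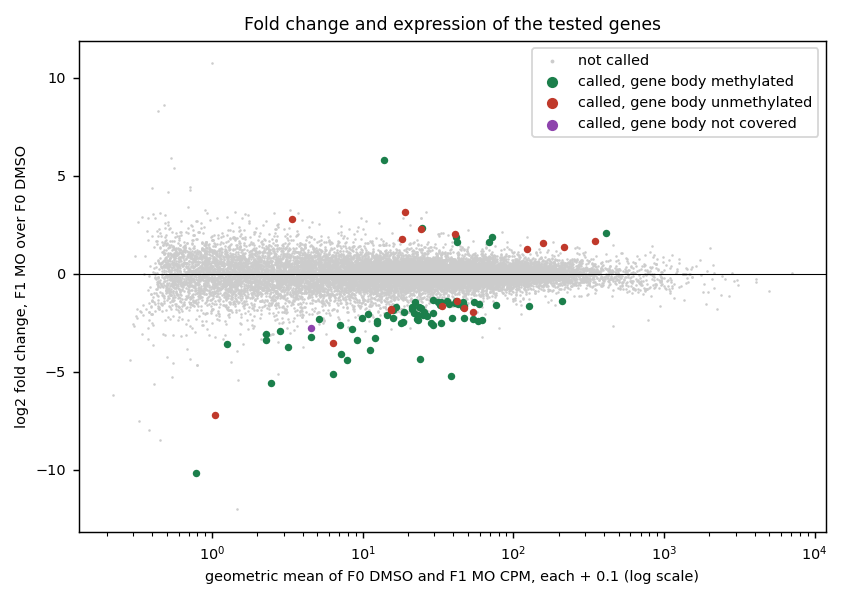
Log2 fold change of F1 MO over F0 DMSO (edgeR) against expression (geometric mean of the CPM of both groups, log scale) for the 16750 tested genes, 1 point per gene. Coloured points are the 95 called genes, in green where the gene body was methylated at baseline, in red where it was not and in purple where it was not covered. 79 lie below the line at 0, most of them green, and 16 lie above it.

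LOC5509388 was the most highly expressed gene among those that fell the most. It spans chromosome 3 from 18048384 to 18056932 on the jaNemVect1.1 assembly, to which all positions refer, and 74.1% of its CpG calls were methylated at baseline. Its expression was 208, 242 and 237 CPM in F0 DMSO replicates 1, 2 and 3 and 7.04 and 5.91 CPM in F1 MO replicates 1 and 2. Both lines were thus far below all control libraries, which varied little. The mean was 229 ± 18.2 CPM (SD, n = 3) in F0 DMSO and 6.47 ± 0.80 CPM (SD, n = 2) in F1 MO, a log2 fold change of -5.19 (SE 0.21, FDR = 0.00057, edgeR). This was also the smallest FDR among the lowered genes. The same gene was at 43.9 and 99.9 CPM in F1 GSK and at 19.8 to 24.7 CPM in F0 GSK, so each of these libraries was below all F0 DMSO libraries too.

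LOC125561229 was called at 0 counts in one group. It had 142, 143 and 144 counts in the F0 DMSO libraries, 6.22, 5.64 and 6.42 CPM, and 0 counts in both F1 MO libraries. Taking 3 counts per library as the floor, it was at least 44.6-fold lower in F1 MO (FDR = 0.0039, edgeR). It was at 0 as well in both F1 GSK and all 3 F0 GSK libraries, so among the 10 RNA-seq libraries its reads came from F0 DMSO alone. The gene is short and lies within LOC5519991 on chromosome 3 (11736439 to 11738693). It was methylated at 63.5% at baseline, a value that rests on only 16 covered CpGs with 192 calls. The enclosing gene LOC5519991 was not called, with 10.7, 11.6 and 11.3 CPM in F0 DMSO and 11.2 and 10.1 CPM in F1 MO.

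LOC125568097 showed another pattern, in that it was nearly undetected in F1 MO only. It had 195, 206 and 117 counts in F0 DMSO and 0 and 2 counts in F1 MO, a ratio of 161 for the pooled counts, with an exact 95% interval of 44.4 to 1336 that covers counting error only. Its expression was 8.54, 8.13 and 5.22 CPM in F0 DMSO, 8.38 and 5.29 CPM in F1 GSK and 8.92 to 12.7 CPM in F0 GSK. Every library other than those of F1 MO thus held it at several CPM (log2 fold change in F1 MO -7.20, SE 0.70, FDR = 0.0055, edgeR). No methylation was found in its body (0.00% mCG, chromosome 1, 14827283 to 14828933), but this rests on only 9 covered CpGs with 105 calls.

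Among the most strongly lowered genes, LOC5502487, LOC5502482 and LOC5501320 lay on chromosome 4, none within 50 kb of another. All were methylated, at 67.4%, 82.9% and 47.5%. LOC5502487 (5325100 to 5329458) was at 9.59, 12.7 and 21.0 CPM in F0 DMSO and at 0.345 and 0.288 CPM in F1 MO. LOC5502482 (5413414 to 5423880) was at 141, 119.5 and 57.4 CPM in F0 DMSO and at 5.14 and 5.57 CPM in F1 MO. LOC5501320 (5633251 to 5640369) was at 10.8, 11.2 and 10.1 CPM in F0 DMSO and at 0.820 and 0.864 CPM in F1 MO. In each case both lines were alike and far below the lowest control library, although the controls of LOC5502487 and LOC5502482 were themselves spread, with F0 DMSO replicate 3 at the high end of one and the low end of the other. The log2 fold changes were -5.54 (SE 0.54, FDR = 0.0056), -4.34 (SE 0.40, FDR = 0.0052) and -3.71 (SE 0.28, FDR = 0.0032, edgeR). LOC5502487 overlaps LOC5502477, which had a log2 fold change of -1.13 (FDR = 0.035) and was not called.

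LOC5513932 and LOC116617537 lay farther along chromosome 4, and not within 50 kb of each other. LOC5513932 (16439487 to 16443839, 69.6% mCG) was at 39.2, 42.8 and 23.4 CPM in F0 DMSO and at 0.993 and 1.10 CPM in F1 MO, a log2 fold change of -5.10 (SE 0.34, FDR = 0.0028, edgeR). LOC116617537 (13507351 to 13509284, 15.5% mCG) was at 31.9, 32.9 and 37.6 CPM in F0 DMSO and at 1.42 and 1.97 CPM in F1 MO, a log2 fold change of -4.39 (SE 0.25, FDR = 0.0018, edgeR). It lies inside LOC5511024, which was not called and had 15.3 to 34.7 CPM in F0 DMSO and 36.2 and 30.4 CPM in F1 MO. For both lowered genes the lines again lay together and well below the controls.

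The other genes with the largest falls lay on different chromosomes. LOC5515586 (chromosome 2, 2885994 to 2902841, 39.9% mCG) was at 26.3, 29.95 and 28.4 CPM in F0 DMSO and at 1.73 CPM in each F1 MO line, 16.3-fold lower (FDR = 0.0018, edgeR). LOC5504846 (chromosome 9, 9201189 to 9212644, 38.2% mCG) was at 37.4, 42.0 and 44.3 CPM in F0 DMSO and at 3.71 and 2.11 CPM in F1 MO, 14.2-fold lower (FDR = 0.0039). LOC5504230 (chromosome 8, 2429471 to 2436472, 26.9% mCG) was at 4.16, 3.51 and 3.43 CPM in F0 DMSO and at 0.302 and 0.336 CPM in F1 MO, 11.6-fold lower (FDR = 0.0083). It lies inside LOC5504223, which was not called (39.0 to 48.5 CPM in F0 DMSO, 48.5 and 47.3 CPM in F1 MO). Unlike these, LOC5518808 (chromosome 14, 2080971 to 2091023) was unmethylated at baseline, at 2.83% mCG. It was at 20.1, 20.2 and 20.8 CPM in F0 DMSO and at 1.86 and 1.87 CPM in F1 MO, 10.9-fold lower (FDR = 0.0026), whereas the F1 GSK lines had 0.931 and 26.9 CPM and so lay on both sides of the controls.

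A smaller FDR than most was also reached by LOC5519267 and LOC116604178, which fell less. LOC5519267 (chromosome 10, 10228757 to 10239339, 67.7% mCG) was at 125, 116 and 110.5 CPM in F0 DMSO and at 24.9 and 24.6 CPM in F1 MO, 4.72-fold lower (FDR = 0.0018, edgeR). LOC116604178 (chromosome 6, 11863990 to 11875056, 39.6% mCG) was at 70.6, 76.0 and 65.4 CPM in F0 DMSO and at 12.5 and 11.5 CPM in F1 MO, 5.88-fold lower (FDR = 0.0020). In both, the spread within each group was small against the difference. The end of LOC5519267 overlaps LOC5519203, which had a log2 fold change of -3.10 (FDR = 0.049) and was not called.

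**Figure D2:**
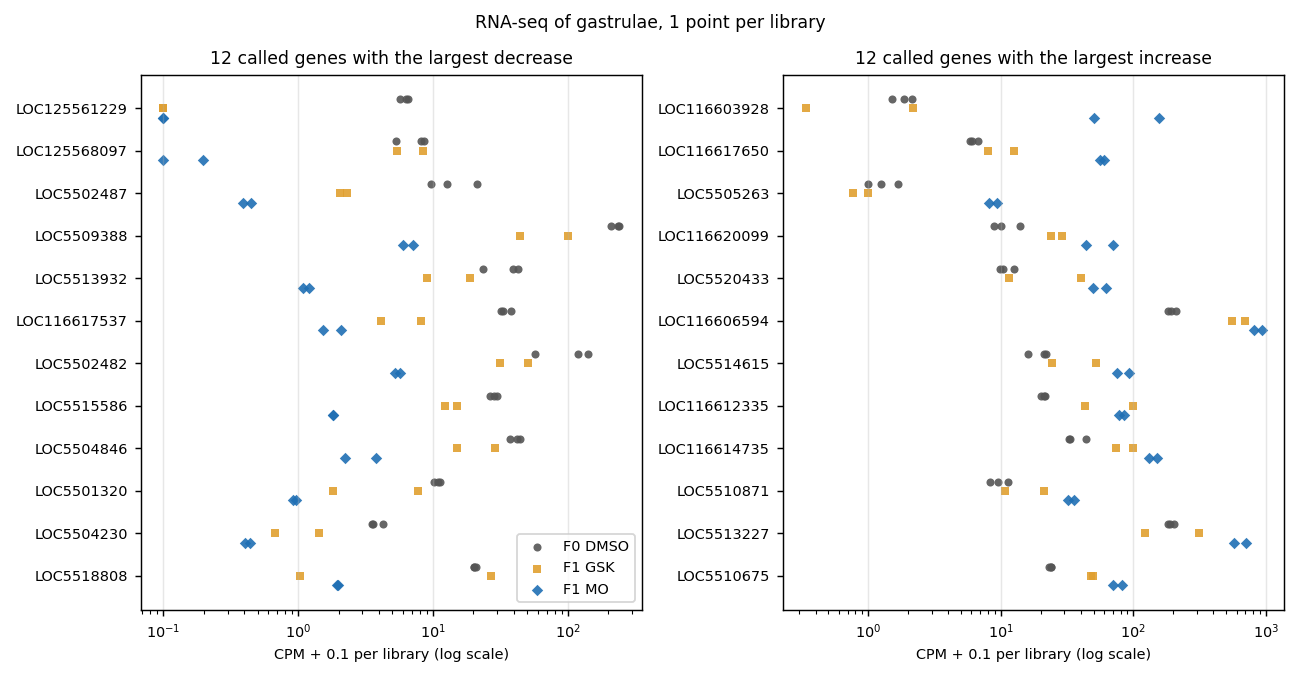
CPM + 0.1 (log scale) of the named genes in the RNA-seq libraries, 1 point per library and 1 line per gene, with the genes called lower in F1 MO and those called higher in separate panels. Groups of F1 MO and F0 DMSO that do not overlap were a condition for choosing these genes. An example is LOC5509388 at 5.91 to 7.04 CPM against 208 to 242 CPM. The points of F1 GSK fall at varied places.

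LOC116603928 rose the most of all called genes, and it was the one called gene whose level differed by more than 2-fold between the lines on the scale of CPM + 1. It was at 1.75, 1.42 and 2.05 CPM in F0 DMSO and at 50.7 and 157 CPM in F1 MO. Both lines were far above the controls, and replicate 2 was about 3.1-fold above replicate 1. The log2 fold change was 5.83 (SE 0.49, FDR = 0.0039, edgeR), and F1 GSK was at 2.08 and 0.236 CPM. The gene is on chromosome 12 (11216284 to 11218575), its body was methylated at 96.0%, and it lies inside LOC5520582. LOC5520582 was not called and had 85.02 to 119 CPM in F0 DMSO and 108 and 110.0 CPM in F1 MO.

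LOC116617650 had the smallest FDR of the raised genes. It was at 6.00, 6.63 and 5.80 CPM in F0 DMSO and at 55.4 and 59.9 CPM in F1 MO, 9.38-fold higher (log2 fold change 3.18, SE 0.16, FDR = 0.0017, edgeR). The lines were alike, and both were several times above all controls and above F1 GSK at 12.4 and 7.83 CPM. Its body had 0.141% mCG (chromosome 3, 8024673 to 8027895), and it too lies inside another gene, LOC5511245, which had 213 to 233 CPM in F0 DMSO and 230.3 and 230.6 CPM in F1 MO. LOC5505263 (chromosome 11, 6819322 to 6830810, 0.741% mCG) was at 1.58, 1.14 and 0.892 CPM in F0 DMSO and at 9.28 and 8.07 CPM in F1 MO, 7.20-fold higher (FDR = 0.0092). F1 GSK was at 0.665 and 0.897 CPM and F0 GSK at 2.06 to 2.92 CPM, so the F1 MO lines were the highest of the 10 libraries.

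The raised gene with the highest expression was LOC116606594 on chromosome 4 (11816428 to 11844336, 21.7% mCG). It was at 183, 193 and 208 CPM in F0 DMSO and at 806 and 926 CPM in F1 MO, 4.45-fold higher (log2 fold change 2.10, SE 0.15, FDR = 0.0032, edgeR). It was also above the controls in both F1 GSK lines (691 and 550.0 CPM) and in F0 GSK (282 to 455 CPM). It holds LOC5500340, which had a log2 fold change of -0.29 and was not called.

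Of the other named raised genes, 5 were methylated. LOC116620099 (53.8% mCG) was at 8.75, 13.9 and 9.90 CPM in F0 DMSO and at 43.5 and 69.8 CPM in F1 MO, 5.22-fold higher (FDR = 0.0097, edgeR). LOC116614735 on chromosome 8 (3117152 to 3136518, 60.4% mCG) was at 32.7, 33.1 and 43.6 CPM in F0 DMSO and at 130.4 and 151 CPM in F1 MO (FDR = 0.0059). LOC5500974 on chromosome 9 (1567610 to 1607318, 47.8% mCG) was at 40.8, 40.2 and 34.2 CPM in F0 DMSO and at 126 and 122 CPM in F1 MO (FDR = 0.0035). These 3 had no large difference between lines, and their groups did not overlap, as for all called genes. LOC116612335 on chromosome 11 (15964193 to 16009211, 12.2% mCG) rose from 20.004, 21.2 and 21.6 CPM to 77.7 and 85.05 CPM (FDR = 0.0032). The fifth was LOC5510675, which had 23.5% mCG.

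The remaining named raised genes were LOC5520433, LOC5514615, LOC5510871, LOC5513227 and LOC5510675. The first 4 were unmethylated, with a baseline mCG of 0.0958% to 1.56%. LOC5520433 was at 10.2, 12.4 and 9.77 CPM in F0 DMSO and at 61.6 and 49.0 CPM in F1 MO, 5.13-fold higher (FDR = 0.0039, edgeR). LOC5513227 was at 188, 203 and 182 CPM in F0 DMSO and at 704 and 574 CPM in F1 MO (FDR = 0.0052), with F1 GSK at 311 and 122 CPM. Over these 5 genes, the log2 fold changes were 1.64 to 2.31. In each gene both lines were above all 3 control libraries, as in all 16 raised genes.

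The lowered genes were mostly genes whose bodies are methylated at baseline. Gene bodies counted as methylated where mCG was 10% or more, given 5 or more CpGs covered by at least 10 calls. Of the 79 lowered genes, 70 were methylated, 8 were unmethylated and 1 was not covered. The methylated genes were 89.7% of the 78 covered, with a Wilson 95% interval of 81.0% to 94.7% that treats genes as independent, compared with 53.9% of the tested genes. Of the 16 raised genes, 7 were methylated, 43.8%. Seen from the side of the classes, 0.786% of the 8911 methylated genes were called lower and 0.0786% were called higher. Among the 7617 unmethylated genes, 0.105% were called lower and 0.118% higher. As a class, methylated genes hardly moved, with a median log2 fold change of -0.02, compared with 0.03 for unmethylated genes.

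The share of lowered genes was larger in each step of baseline methylation. It was 0.105% below 10% mCG, 0.262% from 10% to 30%, 0.888% from 30% to 50%, 1.06% from 50% to 70% and 1.52% from 70%. The counts behind these shares were 8, 8, 24, 23 and 15 genes. The raised genes had no such order, with 9, 3, 1, 2 and 1 genes. Expression differed between the classes, with a median in F0 DMSO of 39.1 CPM for methylated and 5.62 CPM for unmethylated genes, so they were also compared among genes with a mean of at least 20 CPM. There, 47 of 6285 methylated genes (0.748%) and 4 of 2157 unmethylated genes (0.185%) were called lower, and 7 (0.111%) and 8 (0.371%) were called higher. With the larger sets of calls, the share of the covered lowered genes that were methylated was 65.3% with DESeq2 and 70.3% without F0 DMSO replicate 3. Both were above the 53.9% of all tested genes. Among genes at 5 CPM or more in at least 1 F1 MO line, however, 8202 were methylated and 4255 unmethylated, a split close to that of the DESeq2 calls.

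**Figure D3:**
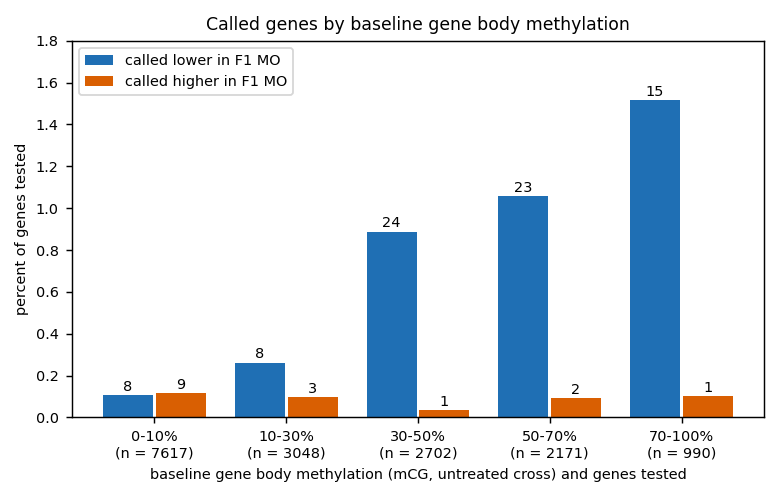
Percent of tested genes called lower (blue) or higher (orange) in F1 MO, by the baseline mCG of the gene body in gastrulae of an untreated cross, with the number of tested genes under each step. The blue bars go from 0.105% in the step below 10% to 1.52% in the step from 70%, whereas the orange bars show no such order.

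The starts of the lowered genes carried little methylation, as did those of all tested genes. Starts were placed with CAGE-seq, which reads the capped ends of transcripts, as the end of a gene with a cluster pointing into it within 500 bp, and were found for 57 lowered genes, 8 raised genes and 8681 of all tested genes. In a window of 500 bp to each side, median mCG was 0.129% over the lowered genes and 0.110% over all tested genes. The lowered genes had a highest value of 18.04%, in LOC5515791, and 0 of 57 reached 20%. For the raised genes the highest value was 7.80%, and 0 of 8 reached 20%. Of all covered starts, 59 of 8665 did. For LOC5509388, the start had 0.00% mCG whereas the gene body had 74.1%, and for LOC5502482 the values were 0.135% and 82.9%.

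Several called genes lay inside or beside another gene, where reads of one may be counted for the other. Of the lowered genes 19 (24.1%) and of the raised genes 5 (31.2%) overlapped another gene, compared with 30.3% of all tested genes. Within 50 kb of each other there were 4 pairs of called genes, all of them lowered. LOC5502380 (20486142 to 20489854) and LOC5502278 (20489900 to 20585767) lie 46 bp apart on chromosome 3. LOC5502380 was at 56.0, 53.7 and 54.6 CPM in F0 DMSO and at 12.9 and 13.3 CPM in F1 MO, and LOC5502278 was at 51.4, 49.4 and 50.2 CPM and at 12.5 and 12.3 CPM. Levels and fold changes of this pair were almost the same (log2 fold changes -2.12 and -2.07), and whether they are separate transcripts was not tested. LOC5502482 has LOC5502481 as its neighbour, which was at 83.6, 84.2 and 82.1 CPM in F0 DMSO and at 14.1 and 22.4 CPM in F1 MO (log2 fold change -2.25). Between them lie LOC5502474 and LOC5502473, with log2 fold changes of -0.79 and 0.18, which were not called. The other pairs were LOC5515539 with LOC5515586 (log2 fold changes -2.03 and -4.08) and LOC5519146 with LOC5519154 (-1.41 and -1.58).

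ATAC-seq, which counts fragments at accessible DNA, was available for both F1 MO lines and 2 F0 DMSO libraries. The F1 MO libraries of this assay stood apart. Their r with each other was 0.646, lower than the 0.766 to 0.784 of each with F0 DMSO and the 0.974 between the F0 DMSO libraries. They were also shallow, with 14046962 and 12525960 counts in peaks against 31015826 and 33980509 in F0 DMSO, and 15.7% and 16.8% of peaks were at least 4-fold below the F0 DMSO mean, compared with 1.09% and 4.98% in the F1 GSK libraries. At FDR below 0.01, edgeR called 0 of 36277 peaks (0%), with 6753 at an unadjusted p below 0.05. DESeq2 called 2241 higher and 4401 lower. Accessibility is therefore described per library, and none of the peaks named here was called by edgeR.

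Peaks at the starts of the lowered genes had a median change below that of all start peaks, with no test of the difference. Of the lowered genes, 48 had a peak at the start, and its median log2 fold change in F1 MO over F0 DMSO was -0.26, compared with 0.16 over the 5643 peaks at starts of tested genes. The median was -0.32 in replicate 1 and -0.20 in replicate 2, compared with 0.10 and 0.15 over all. Both lines thus had the median on the same side. The spread was wide, with 10th to 90th percentiles of -1.28 to 0.45 in replicate 1 and -2.41 to 0.41 in replicate 2. The 6 peaks of raised genes had a median of 0.39, with -0.43 in replicate 1 and 0.79 in replicate 2, so that the lines differed in sign. Single lowered genes varied, and at some the lines were far apart. In F1 MO replicates 1 and 2, the start peak of LOC5502482 was at 34.4 and 1.67 CPM. That of LOC5505359 was at 0.232 and 31.2 CPM, so that either line could be the lower one. At other genes the lines were closer. The start peak of LOC5519267 was at 50.1 and 52.5 CPM in F0 DMSO and at 24.1 and 19.6 CPM in F1 MO. That of LOC5504846 was at 59.3 and 57.1 CPM in F0 DMSO and at 16.8 and 32.4 CPM in F1 MO. By contrast, the start peak of LOC5513932, with RNA 33.5-fold lower, was at 90.2 and 84.0 CPM in F0 DMSO and at 91.2 and 113 CPM in F1 MO.

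Peaks that were methylated at baseline (from 20% mCG) and lay in the body of a gene were found in 46 of the 79 lowered genes (58.2%), 5 of the 16 raised genes (31.2%) and 27.1% of the methylated genes that were not called. The called groups include unmethylated genes, whereas the last group does not. Lowered genes were longer than all tested methylated genes (median 10471 bp against 7251 bp). They were also more methylated (median 48.3% against 39.7% mCG). The shares were not adjusted for length or methylation. The lowered genes held 91 such peaks. On the scale of CPM + 1, 16 of them (17.6%) were at least 2-fold higher than F0 DMSO in both F1 MO lines. On the same scale, 12 (13.2%) were at least 2-fold lower in both. The raised genes held 11, of which 5 (45.5%) were higher and 0 lower. The 3508 peaks of methylated genes that were not called held 10.5% higher and 16.2% lower. The peaks that were higher in both lines lay in 15 lowered genes (19.0%), 3 raised genes (18.8%) and 3.92% of the methylated genes not called, with no test of these shares. A gene with more such peaks has more chances to hold one. Some of the body peaks also reached over the start of their gene, so body peaks and start peaks were not separate sets. The peak of LOC5503860 at chr9:1005842-1008190 was counted in both. In LOC116604178, the peak at chr6:11872793-11875737, higher in both lines, spans the start placed at 11875056. The offset of 1 CPM passes over some changes of low peaks, so the counts of both directions depend on it. In LOC5502482, a peak at 2.35 and 1.10 CPM in F0 DMSO and 0.232 and 0.371 CPM in F1 MO was not counted as lower. In LOC5508297, a peak at 3.75 and 4.10 CPM in F0 DMSO and 9.04 and 17.5 CPM in F1 MO was not counted as higher.

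LOC5509388 and LOC5515586 each held a peak of this kind. In LOC5509388, the peak at chr3:18053680-18054007, 98.6% methylated at baseline, was at 2.82 and 2.59 CPM in F0 DMSO and at 21.0 and 21.8 CPM in F1 MO. At the start of this gene, the peak was at 33.9 and 39.4 CPM and at 19.9 and 29.4 CPM, so the start was somewhat lower and the body peak higher in both lines. In LOC5515586, the peak at chr2:2900744-2901364 (96.2% mCG) was at 7.54 and 8.02 CPM in F0 DMSO and at 68.7 and 79.4 CPM in F1 MO. LOC5516774, whose RNA fell from 6.22, 6.71 and 7.18 CPM to 0.691 and 0.624 CPM, held a peak at chr2:8602041-8602961 that was at 13.1 and 10.1 CPM in F0 DMSO and at 86.4 and 96.9 CPM in F1 MO. In these 3 genes the RNA was lower and the body peak higher.

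Raised genes held peaks of the same kind. LOC116606594 held 3 of them. The peak at chr4:11819253-11819839 (95.5% mCG) was at 5.38 and 5.61 CPM in F0 DMSO and at 37.9 and 83.6 CPM in F1 MO. The peak at chr4:11821708-11822034 (97.3% mCG) was at 2.78 and 2.96 CPM and at 46.2 and 81.0 CPM. All 3 were higher in both lines by the choice of such peaks, and in each replicate 2 was above replicate 1. LOC116614735 (chr8:3120960-3122595) had 10.8 and 11.1 CPM in F0 DMSO and 78.5 and 98.2 CPM in F1 MO, and LOC5500974 (chr9:1602737-1603101) had 4.10 and 4.24 CPM and 20.01 CPM in each line. Peaks of this kind thus occurred in genes whose RNA was lower and in genes whose RNA was higher.

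**Figure D4:**
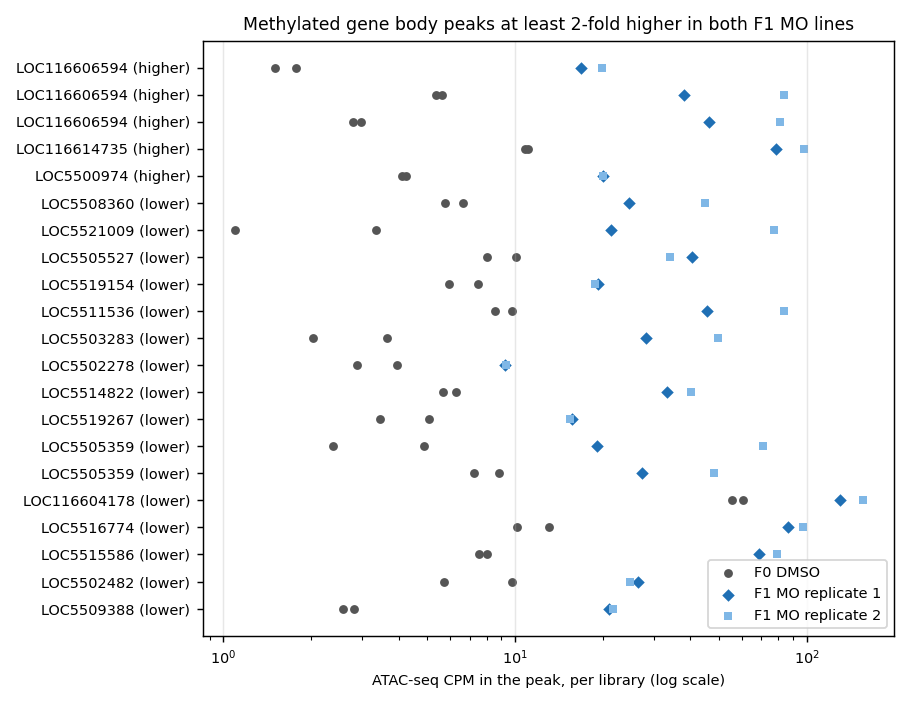
ATAC-seq CPM per library (log scale), 1 line per peak, for the 16 peaks of lowered genes and the 5 of raised genes. Drawn are the methylated gene body peaks that were at least 2-fold higher in both F1 MO lines on the scale of CPM + 1. F0 DMSO libraries (grey) lie at 1.09 to 60.7 CPM and the F1 MO lines (blue) at 9.27 to 156 CPM. The highest values of both groups are those of the peak in LOC116604178, which spans the start of its gene. By the choice of the peaks, F1 MO points lie to the right of the F0 DMSO points of the same peak.

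The F1 MO lines came from different parents, so differences between them were described on their own. Among the 12543 genes at 5 CPM or more in at least 1 line, 20 differed at least 4-fold between the lines on the scale of CPM + 1, with 2 higher in replicate 1 and 18 in replicate 2. Between pairs of F0 DMSO libraries there were 3, 118 and 53 such genes, and between the F1 GSK lines 54. Against F0 DMSO, 0 of the 20 were called by edgeR, where 0.567% of all tested genes were, and a wide spread between the lines itself lowers the chance of a call. Of the 18 genes higher in replicate 2, 15 were unmethylated at baseline, 1 was methylated and 2 were not covered. All genes at 5 CPM or more in at least 1 line were 8202 methylated and 4255 unmethylated. This set is not matched for expression, and a gene could enter it through replicate 2 alone. Unmethylated genes had lower expression, with a median in F0 DMSO of 5.62 CPM compared with 39.1 CPM for methylated genes. No conclusion on methylation is therefore drawn from the 18 genes. The following examples were chosen after their values were seen. LOC5515806 was at 19.1 CPM in replicate 1 and 133 CPM in replicate 2, with 24.1 to 47.7 CPM in F0 DMSO. LOC125573493 was at 0 CPM in replicate 1 and at 14.7 CPM in replicate 2, and LOC125561067 was at 124 CPM and 15.8 CPM. With 1 library per line, line and library cannot be told apart.

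**Figure D5:**
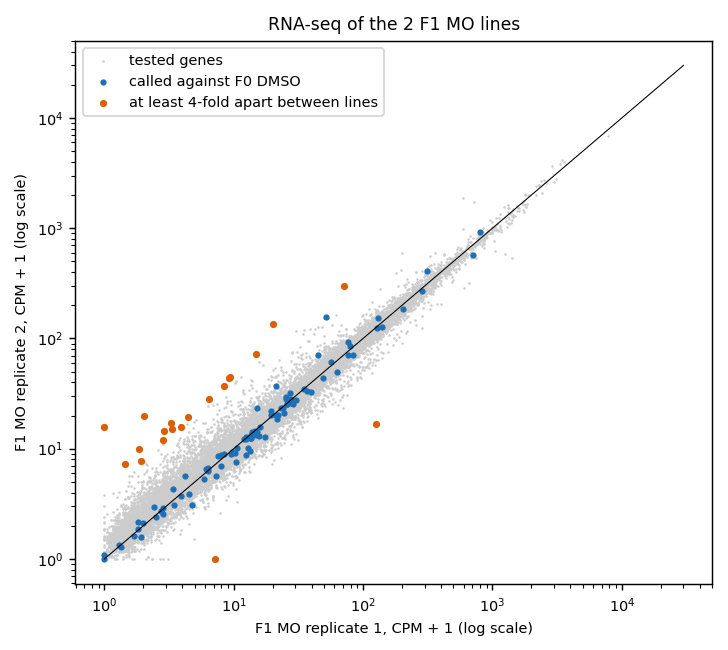
CPM + 1 of the tested genes in F1 MO replicate 1 (horizontal) and replicate 2 (vertical), both on log scales, 1 point per gene, with the line of equal values. Orange points are the 20 genes at least 4-fold apart, 18 of them above the line, and blue points are the 95 genes called against F0 DMSO, which lie close to the line except for LOC116603928 at 50.7 and 157 CPM.

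The genes called in F1 MO were also read in F1 GSK, whose parents had been exposed to the inhibitor. The comparisons of F1 MO and F1 GSK with F0 DMSO share the control libraries, so values are given side by side. Over the 79 genes lowered in F1 MO, the median log2 fold change of F1 GSK over F0 DMSO was -0.86, compared with -2.11 in F1 MO and, for F1 GSK over all tested genes, -0.01. The lists were selected against the same F0 DMSO libraries, so a shift in their direction is not independent. Over the 16 raised genes, the median was 0.77 in F1 GSK, compared with 1.90. In F1 GSK against F0 DMSO, edgeR called 0 genes (0%), with 1810 at an unadjusted p below 0.05. That comparison was not run with DESeq2 here.

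The lines of both kinds were then compared directly, in a fit of all 10 libraries. Of 17153 genes tested, edgeR called 78 (0.455%), with 22 higher in F1 MO (0.128%) and 56 lower (0.326%). At an unadjusted p below 0.05, 3360 passed. Of the 79 genes lowered against F0 DMSO, 30 were also called lower in F1 MO than in F1 GSK, and of the 16 raised genes 3 were called higher. Since both comparisons use the same F1 MO libraries, these counts are not independent of the calls against F0 DMSO. Among the 56 lower genes, 38 were methylated, 17 unmethylated and 1 not covered, and among the 22 higher genes 2 were methylated, 19 unmethylated and 1 not covered. The genes tested in this fit were 8947 methylated, 7963 unmethylated and 243 not covered. The count of 78 depended on the fit. DESeq2 called 765, whereas edgeR called 0 with only the 4 F1 libraries in the fit, with 3239 at an unadjusted p below 0.05.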

How the data were processed

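For RNA-seq the authors deposited raw counts of each gene, without scaling. Their methods describe HISAT2 with TElocal and, in parallel, Kallisto with rounded estimates. Which of these made the table is not given in the sources used here, nor is the use of strand. For ATAC-seq they deposited raw counts in merged peaks (Chromap, MACS3, featureCounts), and for Nanopore counts of calls at each CpG (Dorado, Modkit). The deposited CAGE-seq clusters of the 2 control libraries carry a signal scaled by the authors with a power law (STAR, CAGEr). Their positions and strands were used, and the summed signal decided the start where both ends of a gene had an inward cluster. The number of per-sample columns not used was 0.

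The main test was the quasi-likelihood test of edgeR 4.0.16 in R 4.3.3 (limma 3.58.1 loaded), after filterByExpr and TMM scaling, with the groups compared in the fit and Benjamini-Hochberg adjustment. DESeq2 1.42.0 was the other tool. Methylation, intervals and plots used Python 3.11.15 (numpy 2.4.6), pandas 2.3.3 for tables, and scipy 1.17.1. CPM values divide by plain totals for RNA-seq and by TMM-scaled totals for ATAC-seq. The scripts were tested on simulated data. All 19231 gene IDs matched RefSeq's table of jaNemVect1.1. That table gives no strand, so starts were placed by CAGE-seq rather than by annotation. Inward clusters lay at 8689 gene ends and outward clusters at 4023. Accessions of peaks and CpGs were paired with chromosomes through that table. The labels and methods describe the replicates as separate lines or broodstocks, and the p-values measure the spread between these libraries.

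Named genes were the 12 called genes with the largest rise and the 12 with the largest fall (at least 1 CPM in the higher group, groups not overlapping), the 5 with the smallest FDR in each direction, and those at 0 counts in one group and at least 20 in every library of the other, 27 genes in all. The members, lists and tests were chosen with earlier results of these data known. Lists by product name (pathways, cell type markers, DNA methylation genes) were not used, because the IDs were not paired with product names, so the cell types in the embryos were not checked. The alternatives tried were RLE size factors, DESeq2, all genes without a filter, all 10 libraries, a replicate block, FDR below 0.05, other methylation thresholds (20% for genes, 5 or 20 calls per CpG), 1000 bp around starts, and each library left out. An ATAC-seq fit of all libraries and either gene end as the start were added after seeing the data. No sequence is shown, and the EM-seq methylomes were not analysed here.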

Additional observations from a re-analysis of the deposited data

Results flagged for a closer look

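In 9 of the named genes, F1 MO differed from F1 GSK in the direct test of the lines (edgeR, FDR below 0.01, 10 libraries in the fit), so that the offspring of parents depleted of DNMT1 and UHRF1 by morpholino and the offspring of parents exposed to the inhibitor were not alike at these genes. Among the lowered genes, the log2 difference of F1 MO from F1 GSK was -7.06 for LOC125568097, -3.70 for LOC5513932, -3.44 for LOC5509388, -2.96 for LOC5515586, -2.88 for LOC5504846 and -1.46 for LOC5519267. For LOC5513932 the F1 GSK lines were at 18.7 and 8.87 CPM, between F0 DMSO and F1 MO, and for LOC5519267 they were at 58.0 and 80.5 CPM. Among the raised genes, it was 6.45 for LOC116603928, 3.49 for LOC5505263 and 2.52 for LOC116617650. The 9 genes were chosen by this test, so F1 MO lying outside the range of F1 GSK at each of them is not a separate result. With only the 4 F1 libraries in the fit, or with the replicate number as a block, edgeR called 0 genes between these lines. Parents, line and treatment cannot be told apart in these differences. Groups of 2 or 3 libraries are too small for a test of single outlying libraries.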

How the results depend on the processing

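The 95 genes called in F1 MO were 1479 with DESeq2 (570 higher, 909 lower), 563 with all 10 libraries in the fit (148 and 415), 971 at FDR below 0.05 (343 and 628), 96 with RLE size factors and 111 with no filter. With a library left out, the count was 0 to 822, and with either F1 MO line left out, where the lone library is assumed to vary like the controls, edgeR called 0 (2863 and 2630 genes at an unadjusted p below 0.05). Named genes kept their direction in all 10 alternatives. The methylated share of the lowered genes, 89.7%, was 65.3% with DESeq2, 72.6% with all 10 libraries and 70.3% to 100% with a library left out, and had no value without either F1 MO line. The 78 genes called between F1 MO and F1 GSK were 765 with DESeq2, 0 with only the 4 F1 libraries, and 0 to 40 with a library left out. The 20 genes that differed between the lines were 56 at 3-fold and 2 at 8-fold. The cause of these changes was not tested. Leaving out an F1 MO library raised the ATAC-seq calls from 0 to 22181 and 21176 peaks, and the median of the start peaks of lowered genes stayed below 0. That of the 6 start peaks of raised genes, 0.39, was 0.81 without F1 MO replicate 1 and -0.46 without replicate 2.

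Libraries with the same replicate number came from separate crosses. Their deviations from the group mean had r of 0.16 and -0.18 between F1 MO and F0 DMSO and 0.23 between F1 MO and F1 GSK, where 2 lines in each group give only 1 value, and the numbers were not taken to pair them. With the replicate number as a block, 1990 genes were called (816 higher, 1174 lower), with 65.4% of the lowered genes methylated, and 0 between F1 MO and F1 GSK (4432 at an unadjusted p below 0.05). Alternatives of the pathway lists were not run.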

Other observations

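The lowered genes were spread over all 15 chromosomes. Chromosome 4 held the most, 14 of 1348 tested genes (1.04%), followed by chromosome 2 with 10 (0.623%) and chromosome 3 with 9 (0.621%). By share, chromosome 8 came second, with 6 of 901 (0.666%), and chromosomes 7, 12 and 14 held 1 each. No test of this distribution was run. At FDR below 0.05, where edgeR called 5.80% of the tested genes, 432 lowered genes were methylated, 191 unmethylated and 5 not covered, and 160 raised genes were methylated, 178 unmethylated and 5 not covered.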
